A study of Mus musculus with 7 samples.

Results

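The integrated stress response was examined in the inner cell mass (ICM) of mouse blastocysts, before and after a tamoxifen-inducible form of the kinase RAF was switched on to activate ERK. The genes described are 10 stress response genes chosen by symbol, as a measure of culture and handling stress. All 10 were found among the 52636 genes of the count table (Atf4, Atf5, Ddit3, Ddit4, Trib3, Asns, Chac1, Sesn2, Ppp1r15a and Hspa5), and all 10 passed the filter on low counts along with 16248 genes in total.

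Embryos of the genotype Sox2Cre;CRAFR26 were flushed at embryonic day 2.5 and kept for 24 h in culture with 250 nM PD173074, an inhibitor of the FGF receptors. The series describes 4 replicates per condition, of which 1 vehicle sample was dropped at quality control. The vehicle group (3 libraries, time label 0 h) received ethanol for 4 h, so it was handled and cultured like the treated group. The tamoxifen group (4 libraries, time label 4 h) received 250 nM 4-hydroxytamoxifen for 4 h. Both groups therefore carried the construct and the Cre transgene, and both had been cultured with the receptor inhibitor. No library came from uncultured embryos. Sox2 regulatory sequence drives Cre mainly in the epiblast lineage, while an ICM also holds primitive endoderm cells. The trophectoderm was removed by immunosurgery, which lyses the outer cells with antibody and complement, and each library pooled 10 ICMs. The construct came from clone 4 and clone 8. Vehicle libraries are named clone4_1, clone4_2 and clone8_1 after their titles, and tamoxifen libraries clone4_1, clone4_2, clone8_1 and clone8_2. The labels call the cells epiblast at embryonic day 3.5.

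Total counts ranged from 22981498 to 42294719 per library, and 19287 to 22641 genes had at least 1 count. Both clone8_1 libraries correlated less with the others (mean r 0.929 in vehicle and 0.931 in tamoxifen clone8_1) than the rest did (0.944 to 0.955). Tamoxifen clone8_1 also had the fewest genes with a count and the highest mitochondrial share of counts (2.80%). Vehicle clone8_1 stood apart in short transcripts. Its median deviation from the middle library was -1.29 (log2) over coding genes whose typical transcript is shorter than 1000 nt, against -0.038 to 0.22 in the other 6 libraries, and it was 0.033 for those of 2000 to 4000 nt. All 10 epiblast markers were tested and their summed level was 1678 to 2216 CPM (counts scaled to library size). The sum of 10 trophectoderm markers was 6546 to 11227 CPM. Much of that came from Krt8 and Krt18, which averaged 3176 and 3320 CPM in vehicle libraries, so sums of different lists do not compare amounts of cells. Cdx2 and Gata3 averaged 516 and 929 CPM in vehicle libraries, where Nanog averaged 578 CPM. Transcripts of trophectoderm markers were thus present in the pools. Markers of the maternal tract and blood summed to at most 2.16 CPM, with Ptprc and Hbb-bs at 0 in every library.

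In the integrated stress response, kinases that sense amino acid shortage, misfolded protein in the endoplasmic reticulum (ER), double-stranded RNA or lack of heme phosphorylate the initiation factor eIF2. Most translation then slows, while the transcription factor ATF4 is made more efficiently from an mRNA that is already there. ATF4 switches on genes for amino acid supply and, if stress persists, for cell death. ATF4 output is therefore read from the transcripts of its targets rather than from Atf4 mRNA alone.

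Promoter stretches that hold known stress elements are shown first. Chac1, Trib3 and Asns, the 3 with an ATF4-type element there, were also the 3 of the 10 genes with the largest spread between libraries. The within-group SD of log2 CPM was 0.69 for Asns, close to 0.61 for Ddit4 and 0.60 for Atf5, which had no match. This was seen after the values were known, and a link between element and spread was not tested. Windows from 250 bases before to 50 after the start of each RefSeq transcript (GRCm38.p6) were searched on both strands. The C/EBP-ATF response element was searched as TGATGNAA and the ER stress element as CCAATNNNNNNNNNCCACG. All 10 genes had a window, 11 windows in all since Atf5 had more than 1. Capitals mark the match, and positions are counted from the transcript start.
Asns, chr6:7693210-7693262, minus strand, match at -23: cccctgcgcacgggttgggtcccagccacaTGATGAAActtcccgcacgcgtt
Chac1, chr2:119351019-119351086, plus strand, match at -193 on the other strand: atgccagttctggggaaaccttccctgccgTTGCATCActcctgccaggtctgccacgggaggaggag
Trib3, chr2:152344039-152344076, minus strand, match at 15 on the other strand: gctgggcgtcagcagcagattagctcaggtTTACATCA
Hspa5, chr2:34771995-34772073, plus strand, match at -65: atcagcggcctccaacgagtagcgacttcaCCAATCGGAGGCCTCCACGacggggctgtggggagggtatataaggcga

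The first element was found in 3 of the 10 genes and in 3.969% of all 32851 promoter windows. The second was found in Hspa5 alone among the 10, and in 0.119% of all windows. Neither element was found in the windows of Atf4, Atf5, Ddit3, Ddit4, Sesn2 or Ppp1r15a. A match is a description of the letters and was not tested for binding, and functional elements can lie outside the window.

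Transcript levels per length set the background. Per kilobase of typical transcript (RPKM), Hspa5, the main chaperone of the ER, was the highest of the 10, with a mean of 330.1 and a range of 253 to 538 over the 7 libraries. Its range did not meet that of Atf4, which came next at a mean of 88.5 RPKM (68.0 to 114). Asns followed at 66.4 RPKM (25.5 to 127), Ddit4 at 30.3 (17.4 to 54.6), Sesn2 at 25.2 (21.8 to 30.8), Ppp1r15a at 24.7 (17.5 to 29.8) and Ddit3 at 17.0 RPKM (7.64 to 22.1). Trib3 (7.82 RPKM, 2.69 to 14.6), Atf5 (4.16 RPKM, 1.8 to 6.25) and Chac1 (1.44 RPKM, 0.134 to 4.83) were lowest. From Atf4 downward, each gene overlapped its neighbours in this order. The transcripts of Hspa5 and Atf4 thus lay above those of Ddit3, Trib3 and Chac1, the genes linked to cell death and its control, in every library.

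None of the 10 genes was called for a change with 4 h of tamoxifen. The Benjamini-Hochberg adjusted p from edgeR's quasi-likelihood test was between 0.794 and 0.948, and 0% of all 16248 genes passed an adjusted p of 0.05. An unadjusted p below 0.05 was found by edgeR for 1 of the 10 genes, against 5.97% of all genes; DESeq2 called 0 of the 10 and also gave 1 at an unadjusted p under 0.05. Of the 10 estimates 5 were above 0 and 5 below, where 48.3% of all genes were below. The median log2 fold change was -0.054, against 0.019 over all genes. This median and the even split rested on single libraries: without vehicle clone4_2 the median was 0.34 with 7 of 10 higher, without tamoxifen clone4_2 it was -0.24 and without vehicle clone4_1 -0.22, each with 6 of 10 lower. Groups did not overlap in 1 of the 10, against 8.45% of all genes. The gene with an unadjusted p under 0.05 and the gene without overlap were both Ppp1r15a. These p-values measure the spread between pools, which may be technical.

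**Figure D1:**
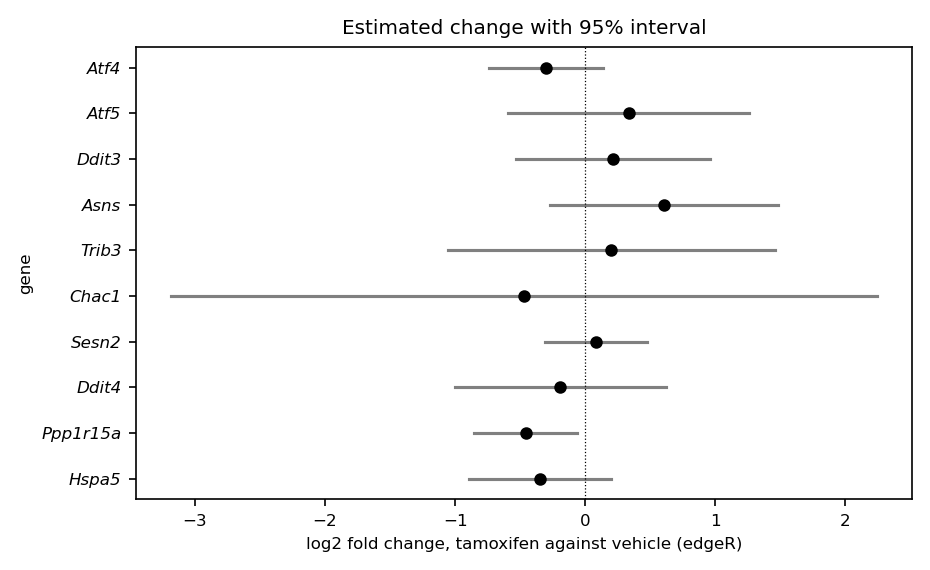
Estimated log2 fold change of each gene, tamoxifen against vehicle, from edgeR (points), with 95% intervals (lines); the x axis is on the log2 scale and the dotted line marks no change. The interval of Ppp1r15a runs from -0.85 to -0.063, those of the other 9 genes include 0, and that of Chac1 is the widest, from -3.18 to 2.24.

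Among the transcription factors, Atf4 (chromosome 15, 80255184 to 80257541, plus strand; ENSMUSG00000042406), the central effector, had 187, 196 and 129.6 CPM in vehicle clone4_1, clone4_2 and clone8_1. It had 127, 146, 165 and 117 CPM in tamoxifen clone4_1, clone4_2, clone8_1 and clone8_2. The groups overlapped, because vehicle clone8_1 lay among the tamoxifen libraries. Mean levels were 171 ± 36.1 CPM in vehicle (SD, n = 3) and 139 ± 21.4 CPM in tamoxifen libraries (SD, n = 4). The difference was -0.30 ± 0.20 on the log2 scale (SE; 95% interval -0.74 to 0.14; adjusted p = 0.803, edgeR). Without vehicle clone8_1 the estimate was -0.47 (unadjusted p = 0.0175, edgeR; adjusted p = 0.746), and without vehicle clone4_2 it was -0.19 (unadjusted p = 0.411, edgeR). With both clone8_1 libraries left out it was -0.56 (edgeR, unadjusted p = 0.0037, adjusted p = 0.578). Within clone 4 alone it was -0.50 (edgeR, unadjusted p = 0.0133, adjusted p = 0.557). In clone 8, with 1 vehicle library and no test, the log2 ratio of means was 0.12. The estimate was below 0 in all 17 alternatives.

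Atf5 (chromosome 7, 44812256 to 44816658, minus strand), a related factor that ATF4 and CHOP can induce and that is likewise controlled in translation, was low. Its vehicle values were 4.91, 10.8 and 3.12 CPM in clone4_1, clone4_2 and clone8_1. Its tamoxifen values were 7.72, 8.45, 9.35 and 6.17 CPM in clone4_1, clone4_2, clone8_1 and clone8_2. Vehicle clone4_2 was the highest and vehicle clone8_1 the lowest of all 7, so the vehicle group enclosed the tamoxifen group. This gave a log2 fold change of 0.33 ± 0.42 (SE; 95% interval -0.59 to 1.26). It was 0.00059 without vehicle clone8_1 and 0.98 without vehicle clone4_2 (unadjusted p = 0.0253, edgeR; adjusted p = 0.716). The end of Atf5 overlaps Nup62 on the other strand by 571 bp, and Nup62 had 127 to 257 CPM. The strand setting of the counting is not given in the sources used here, so some reads could belong to either gene.

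Ddit3 (chromosome 10, 127290774 to 127296288, plus strand) encodes CHOP, which promotes cell death under lasting ER stress. It had 19.7, 15.2 and 6.80 CPM in vehicle clone4_1, clone4_2 and clone8_1, and 14.4, 18.0, 17.6 and 14.4 CPM in tamoxifen clone4_1, clone4_2, clone8_1 and clone8_2. Vehicle clone8_1 alone was low, and the other 6 libraries lay between 14.4 and 19.7 CPM, with the groups mixed. Over all libraries the log2 fold change was 0.21 ± 0.33 (SE; 95% interval -0.53 to 0.96). The typical Ddit3 transcript is 890 nt, and vehicle clone8_1 is the library in which transcripts under 1000 nt were low. Without that library the estimate was -0.13, without vehicle clone4_1 it was 0.54, and with an offset for transcript length it was -0.029. The part of transcript length in the low value of vehicle clone8_1 was not tested. Atf5, Ddit4 and Chac1, with typical transcripts of 1735, 1755 and 1637 nt, were also lowest in vehicle clone8_1. GENCODE M21 lists a second Ddit3 gene inside the first, over 2925 bp, which has no row in the table. Mars overlaps Ddit3 on the other strand by 68 bp and had 231 to 430 CPM. With the strand setting unknown, some reads could belong to either gene.

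The targets in amino acid supply and feedback showed the widest spread, and it lay within the conditions. Asns (chromosome 6, 7675169 to 7693254, minus strand), which makes asparagine, had 51.1, 145 and 112 CPM in vehicle clone4_1, clone4_2 and clone8_1. It had 140.3, 256, 138 and 90.9 CPM in tamoxifen clone4_1, clone4_2, clone8_1 and clone8_2. Tamoxifen clone4_2 was the highest and vehicle clone4_1 the lowest, 5.01-fold apart, with the others between and mixed. Mean levels were 103 ± 47.6 CPM (SD, n = 3) without and 156 ± 70.2 CPM (SD, n = 4) after tamoxifen, and the log2 fold change of 0.61 ± 0.39 (SE; 95% interval -0.27 to 1.48) had an adjusted p of 0.803 in edgeR. It was above 0 in all 17 alternatives, but it was 0.25 without tamoxifen clone4_2 and 0.27 without vehicle clone4_1. In the other direction, it was 0.94 without vehicle clone4_2 and 1.01 within clone 4 alone. With the replicate number as a block it was 0.86 (unadjusted p = 0.0187, edgeR; adjusted p = 0.852).

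Trib3 (chromosome 2, 152337422 to 152344032, minus strand), a pseudokinase that damps ATF4 and CHOP, had 5.46, 29.6 and 8.67 CPM in vehicle clone4_1, clone4_2 and clone8_1. Tamoxifen clone4_1, clone4_2, clone8_1 and clone8_2 had 14.8, 27.4, 16.8 and 8.16 CPM. In both conditions the clone4_2 library was highest, and the group means of 14.6 ± 13.1 CPM (SD, n = 3) and 16.8 ± 7.97 CPM (SD, n = 4) were close. The log2 fold change was 0.20 ± 0.56 (SE). It was 1.24 without vehicle clone4_2 (unadjusted p = 0.0288, edgeR; adjusted p = 0.716) and -0.20 without vehicle clone4_1.

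Chac1 (chromosome 2, 119351229 to 119354381, plus strand), which degrades glutathione and is among the most inducible ATF4 targets, varied most. In vehicle clone4_1, clone4_2 and clone8_1 it had 11, 254 and 9 counts, and in tamoxifen clone4_1, clone4_2, clone8_1 and clone8_2 it had 63, 120, 7 and 49. As CPM these were 0.273, 7.91 and 0.219 in vehicle, and 1.49, 5.17, 0.253 and 1.19 in tamoxifen. Again both clone4_2 libraries were high. The highest vehicle library was 36.1-fold above the lowest, and the highest tamoxifen library 20.5-fold above the lowest. The group means differed 1.38-fold, but a range of single libraries tends to be wider than a difference of means. The within-group SD of its log2 CPM was 2.16, above that of 99.4% of genes tested, although genes this low also vary more by counting. The log2 fold change was -0.47 ± 1.22 (SE), and it was 3.02 without vehicle clone4_2 (unadjusted p = 0.0307, edgeR; adjusted p = 0.716) and -1.51 without tamoxifen clone4_2.

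**Figure D2:**
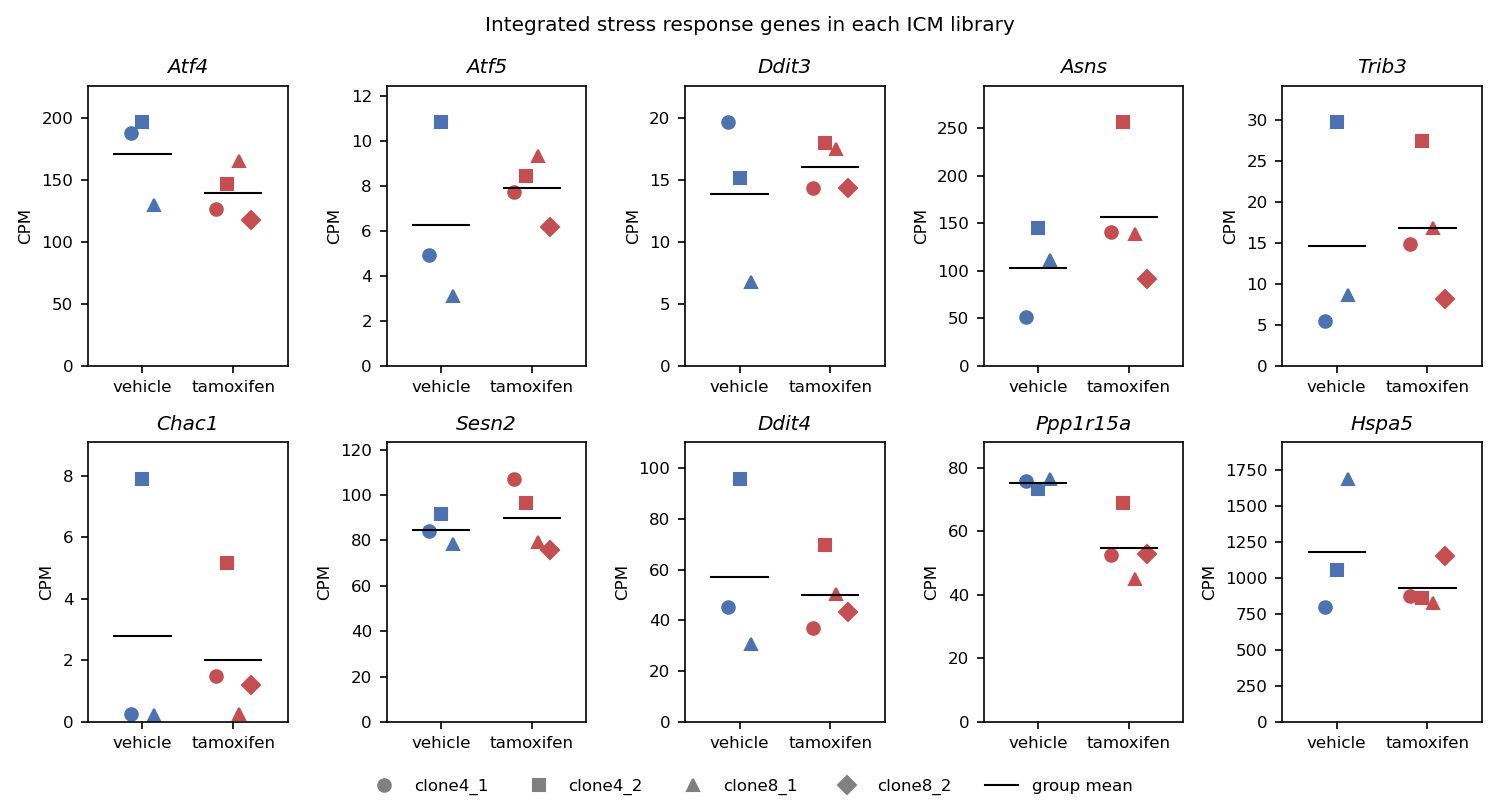
CPM of the 10 genes in each library (points; shape gives the clone and number, blue vehicle, red tamoxifen) with the group mean (line); every y axis is linear and starts at 0. Squares, the clone4_2 libraries, are highest within their condition for Trib3, Chac1, Asns and Ddit4, and all 4 Ppp1r15a values with tamoxifen lie below the 3 vehicle values.

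Among the genes that hold back growth under stress, Sesn2 (chromosome 4, 132492032 to 132510501, minus strand), a leucine sensor that inhibits mTORC1, was the steadiest. It had 84.2, 91.7 and 78.2 CPM in vehicle clone4_1, clone4_2 and clone8_1, and 107, 96.5, 79.3 and 75.7 CPM in tamoxifen clone4_1, clone4_2, clone8_1 and clone8_2. Its values stayed within 1.42-fold, and its log2 fold change was 0.082 ± 0.17 (SE; 95% interval -0.31 to 0.47). That interval bounds what these pools can show for Sesn2; no difference was detectable within it. Gm12981, annotated inside it on the same strand over 6089 bp, had at most 11 counts.

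Ddit4 (chromosome 10, 59949669 to 59951834, minus strand), another mTORC1 inhibitor, which also responds to low oxygen and glucocorticoids, had 45.2, 95.9 and 30.6 CPM in vehicle clone4_1, clone4_2 and clone8_1. Tamoxifen clone4_1, clone4_2, clone8_1 and clone8_2 had 37.2, 69.7, 50.5 and 43.2 CPM. Both clone4_2 libraries were again the highest of their condition. Ddit4 was at -0.19 ± 0.36 on the log2 scale (SE; 95% interval -1.0 to 0.62), and it was 0.40 without vehicle clone4_2 and -0.50 without vehicle clone8_1.

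Ppp1r15a (chromosome 7, 45522916 to 45526268, minus strand; ENSMUSG00000040435) encodes GADD34, which brings a phosphatase to eIF2 and so ends the response. It was the 1 gene of the 10 whose groups did not overlap. It had 76.0, 73.4 and 76.6 CPM in vehicle clone4_1, clone4_2 and clone8_1, and 52.6, 69.0, 44.9 and 52.8 CPM in tamoxifen clone4_1, clone4_2, clone8_1 and clone8_2. All 4 tamoxifen libraries lay below all 3 vehicle libraries, which were almost equal. Vehicle libraries averaged 75.3 ± 1.68 CPM (SD, n = 3) and tamoxifen libraries 54.8 ± 10.1 CPM (SD, n = 4). The log2 fold change was -0.46 ± 0.18 (SE; 95% interval -0.85 to -0.063; unadjusted p = 0.0272, edgeR), but the adjusted p was 0.794, and the gene ranked 525 by p. Leaving out 1 library at a time moved it between -0.60 and -0.37, and the unadjusted p was under 0.05 in 3 of these 7 fits (0.00829 to 0.0605). Within clone 4 alone it was -0.31 (unadjusted p = 0.159, edgeR), and in clone 8, with 1 vehicle library and no test, the log2 ratio of means was -0.65.

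Other transcripts were also lower in the tamoxifen libraries than in vehicle. All 10 trophectoderm markers were lower with tamoxifen, with a median log2 fold change of -0.33 and summed levels of 8530.4 to 11227 CPM in vehicle against 6546 to 9534 CPM in tamoxifen libraries (3 of 10 at an unadjusted p under 0.05, 0 called, edgeR). Markers of the other lineages leaned the other way, with 8 of 10 epiblast markers higher (median 0.41; 1 of 10 at an unadjusted p under 0.05) and 6 of 9 primitive endoderm markers higher (median 0.49; 2 of 9, Sox17 and Lama1, at an unadjusted p under 0.05 and without overlap). The 3 lower primitive endoderm markers were Pdgfra (-0.50), Dab2 (-0.21) and Fgfr2 (-0.067), and Sox7 was not tested. Dab2 averaged 743 CPM in vehicle libraries, against 2.96 CPM for Sox17 and 4.21 CPM for Lama1. Without vehicle clone4_1 the primitive endoderm median was 0.23, and without vehicle clone8_1 the epiblast median was 0.26. Of 8 immediate early genes, which are induced within minutes by growth factors and by handling, 6 were lower. In bulk RNA, fewer cells of a type and less RNA per cell cannot be told apart, and the part of any of these lists in the values of Ppp1r15a was not tested. Tulp2, which overlaps Ppp1r15a on the other strand by 717 bp, had at most 2.28 CPM.

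Hspa5 (chromosome 2, 34771970 to 34777547, plus strand) encodes BiP, the ER chaperone whose gene is driven by ATF6 and XBP1 as well as ATF4. It had 796, 1058 and 1689 CPM in vehicle clone4_1, clone4_2 and clone8_1, and 872, 862, 827 and 1155 CPM in tamoxifen clone4_1, clone4_2, clone8_1 and clone8_2. Vehicle clone8_1 was 1.46-fold above the highest other library, and the groups overlapped with and without it. Hspa5 was at -0.35 ± 0.25 (log2, SE; 95% interval -0.89 to 0.20), and it was -0.0049 without vehicle clone8_1. Without vehicle clone4_1, the lowest library, it was -0.58 (unadjusted p = 0.0312, edgeR; adjusted p = 0.551). Its typical transcript is 3142.5 nt, a length at which the median gene of vehicle clone8_1 was close to the other libraries. With an offset for transcript length the estimate was -0.25 (unadjusted p = 0.252, edgeR). The part of transcript length in the high value of vehicle clone8_1 was not tested. The Hspa5 promoter is the 1 shown above with an ER stress element.

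The within-group SD of log2 CPM was above the size of the log2 fold change for most of these genes. It was 2.16 against -0.47 for Chac1 and 0.97 against 0.20 for Trib3. Atf4 (0.27 against -0.30) and Ppp1r15a (0.20 against -0.46) were the exceptions. The share of all genes for which this holds was not computed. Vehicle clone4_2 was the highest of all 7 libraries for 5 of the 10 genes, and each clone4_2 library was among the highest 2 for 6 of them. Within their conditions, both clone4_2 libraries were highest for 4 of the 10 (Asns, Chac1, Ddit4 and Trib3), which includes the 3 whose promoter windows hold the C/EBP-ATF response element; both were highest for 7.502% of all genes tested. Vehicle clone8_1 was lowest for 4 (Atf5, Ddit3, Ddit4 and Chac1) and vehicle clone4_1 for 3 (Asns, Trib3 and Hspa5). These libraries were picked out after their values were seen, the 10 genes share the same pools, and no test was made. The within-group SD of log2 CPM had a median of 0.56 over the 10 genes, against 0.47 over all genes tested.

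**Figure D3:**
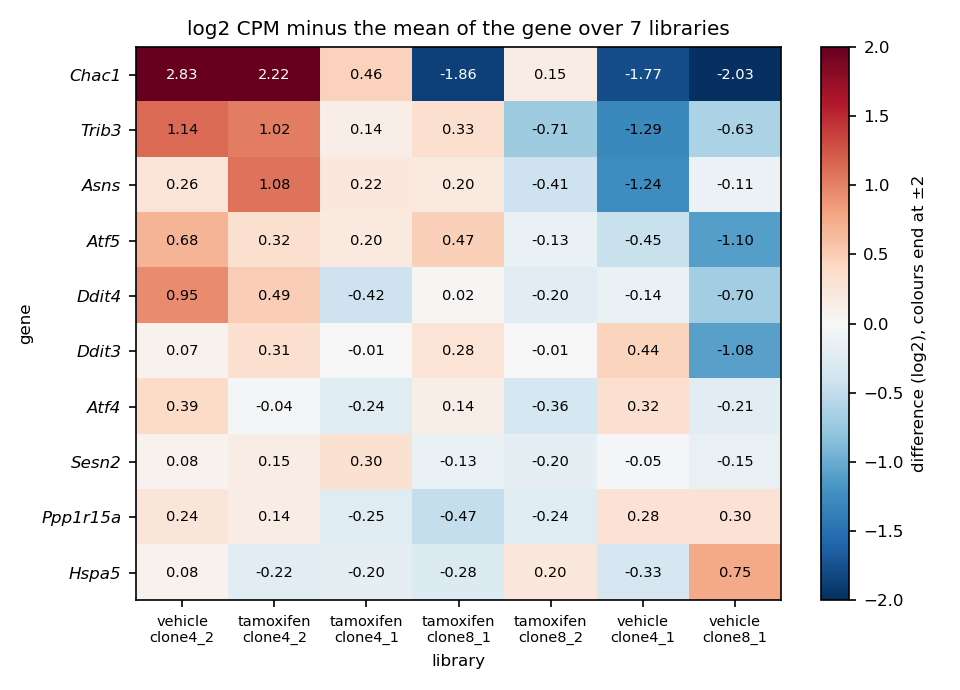
Each cell gives the log2 CPM of a gene in a library minus the mean of that gene over the 7 libraries, with red above and blue below the mean (colours end at ±2). Chac1 reaches 2.83 in vehicle clone4_2 and 2.22 in tamoxifen clone4_2, and Hspa5 stands at 0.75 in vehicle clone8_1 and at most 0.20 elsewhere.

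The clone4_2 libraries were also high for the genes that load tRNAs, and less uniformly so for other genes of amino acid supply. Aminoacyl-tRNA synthetases, which are ATF4 targets in many cells, were highest in tamoxifen clone4_2 among the 4 tamoxifen libraries for 10 of 10 genes (23.97% of all genes), and highest in both clone4_2 libraries for 7 of 10. Of 14 genes of amino acid synthesis and transport, 11 were highest in tamoxifen clone4_2 among its group and 4 in both; among the vehicle libraries, clone8_1 was highest for 8 of the 14 and clone4_2 for 6. Of 6 other ATF4 targets tested, clone4_2 was highest for 5 among vehicle libraries but for 2 among tamoxifen libraries, and both were highest for 1. Epiblast markers were highest in clone4_2 for 7 of 10 among vehicle and 5 of 10 among tamoxifen libraries, and in both for 2 of 10. Mthfd2, a mitochondrial folate enzyme, had 23.3, 118 and 34.8 CPM in vehicle clone4_1, clone4_2 and clone8_1, and 68.4, 87.3, 71.7 and 48.8 CPM in tamoxifen clone4_1, clone4_2, clone8_1 and clone8_2. Nupr1, a small stress-induced chromatin protein, had 2.26, 30.2 and 0.658 CPM in the vehicle libraries, and 34.0, 29.3, 34.6 and 6.46 CPM in the tamoxifen libraries, in the same order. Mthfd2 was named after its values were seen. Phgdh, of the same list and also named afterwards, went the other way. It was lowest of all 7 libraries in tamoxifen clone4_2 (273 CPM) and highest in vehicle clone8_1 (477 CPM). Nupr1 was high in 3 tamoxifen libraries and not in clone4_2 alone, and its typical transcript is 829 nt.

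By condition, these lists gave no call, with 0 genes at an adjusted p under 0.05 in edgeR in any of them. Of 10 synthetases, 5 estimates were higher and 5 lower (median log2 fold change 0.0068), and 0 of 10 had an unadjusted p under 0.05. That split rested on single libraries: without vehicle clone4_1, 9 of 10 were lower with a median of -0.17, and without vehicle clone4_2, 7 of 10 were higher with a median of 0.091. Of the 14 amino acid genes, 5 were higher and 9 lower (median -0.13; -0.29 without vehicle clone4_1 and -0.011 without vehicle clone8_1). Pycr1, the last enzyme of proline synthesis, averaged 8.28 ± 0.493 CPM without tamoxifen (SD, n = 3) and 16.5 ± 5.61 CPM with it (SD, n = 4), and the groups did not overlap (log2 fold change 1.00 ± 0.32, SE; unadjusted p = 0.0105, edgeR). Slc7a5, a large neutral amino acid transporter, was higher by 0.94 ± 0.35 (SE, log2; unadjusted p = 0.0213, edgeR), and Slc38a2, a glutamine transporter, was at -1.29 ± 0.55 (SE, log2; unadjusted p = 0.0402, edgeR). For Slc38a2, vehicle clone4_2 at 16.8 CPM stood above every other library (1.8 to 4.56 CPM). In the list of other ATF4 targets, 6 of 8 genes were tested, 3 higher and 3 lower. Atf3 (-1.02 ± 0.76, SE), Cebpg (0.33 ± 0.27, SE) and Nupr1 (1.24 ± 1.03, SE) had the smallest p of these on the log2 scale, and Fgf21 had no count in any library.

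Upstream, the list of eIF2 kinases, eIF2 and eIF2B held 12 genes, but not the gamma subunit of eIF2. Of the 12 genes, 2 were higher and 10 lower, with a median of -0.13. Without vehicle clone8_1 the median was 0.066, with 8 of 12 higher, and without vehicle clone4_1 it was -0.23, with 10 of 12 lower. Eif2s2, the beta subunit of eIF2, averaged 3195 ± 308 CPM without tamoxifen (SD, n = 3) and 4506 ± 703 CPM with it (SD, n = 4), again without overlap (log2 fold change 0.50 ± 0.16, SE; unadjusted p = 0.0116, edgeR). The gamma subunit, looked up after the values of the list were seen, has an X-linked and a Y-linked copy that are close in sequence, so reads could be split between them. Eif2s3x averaged 104 ± 13.6 CPM without tamoxifen (SD, n = 3) and 67.6 ± 10.1 CPM with it (SD, n = 4), with the tamoxifen libraries all lower (log2 fold change -0.62 ± 0.18, SE; unadjusted p = 0.00566, adjusted p = 0.794, edgeR). Eif2s3y was at 0.60 ± 0.24 (SE, log2; unadjusted p = 0.0340, edgeR) with overlapping groups. The estimates for these subunits of eIF2 thus did not share a direction. The sex of the pooled embryos was not used here, and its part in the values of the X-linked and Y-linked copies was not tested. Eif2ak1, the heme-regulated kinase, was at -0.51 ± 0.21 (SE, log2; unadjusted p = 0.0392, edgeR). The kinases act through phosphorylation, which these data do not measure.

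In the ER arm, of 20 genes of the unfolded protein response, 16 were lower and 4 higher, with a median of -0.24; all genes had 48.3% lower and a median of 0.019. Vehicle clone8_1 was the highest of all libraries for 11 of the 20, as for Hspa5, and without it 12 of 20 were lower with a median of -0.12. Without vehicle clone4_1, 18 of 20 were lower with a median of -0.44, and 6 of 20 had an unadjusted p under 0.05 in edgeR. Dnajb9, a co-chaperone of BiP, averaged 55.5 ± 5.66 CPM without tamoxifen (SD, n = 3) and 39.9 ± 4.59 CPM with it (SD, n = 4), without overlap (log2 fold change -0.48 ± 0.17, SE; unadjusted p = 0.0197, edgeR). Atf6, an ER stress sensor, was at -0.63 ± 0.29 (SE, log2) and Hsp90b1, an ER chaperone, at -0.43 ± 0.21 (SE, log2), both with overlapping groups.

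Other stress programmes were compared by the same lists. Of 12 cytosolic heat shock genes, 10 were lower (median -0.15) and 0 had an unadjusted p under 0.05 in edgeR; Hspa8, the constitutive chaperone, was at -0.36 ± 0.18 (SE, log2). Of 10 p53 targets, 5 were higher and 5 lower (median 0.037), and Phlda3, an inhibitor of AKT, was higher by 0.58 ± 0.23 (SE, log2; unadjusted p = 0.0291, edgeR). Of 10 genes of the oxidative stress response, 6 were lower (median -0.069), and Sqstm1, the autophagy receptor p62, was at -0.54 ± 0.19 (SE, log2; unadjusted p = 0.0181, edgeR) without overlap. The immediate early list had a median of -0.32, and Fos (-1.37 ± 0.36, SE), Jun (-0.56 ± 0.21, SE) and Zfp36 (-0.53 ± 0.23, SE) had the smallest p in it. Every gene in these lists had an adjusted p of at least 0.794 (edgeR).

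**Figure D4:**
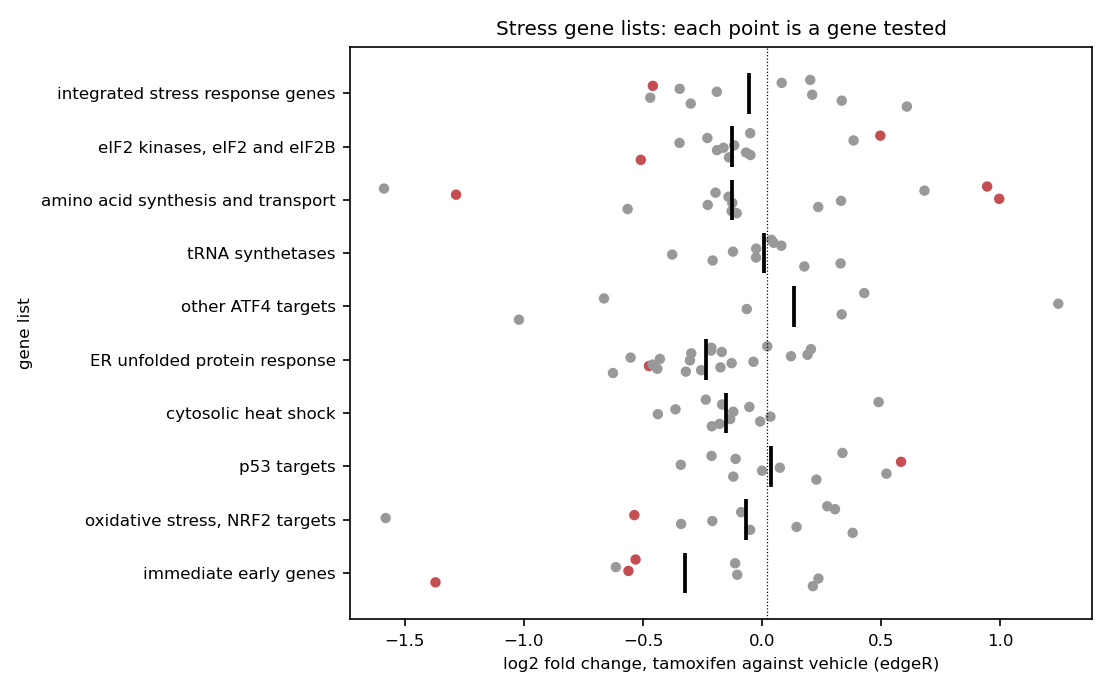
Log2 fold change of each gene tested (points, tamoxifen against vehicle, edgeR) by stress list, with the median of the list (thick bar) and the median of all 16248 genes (dotted line, 0.019). Red points have an unadjusted p under 0.05, and 0 genes in any list had an adjusted p under 0.05.

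Whether the clones differed in these genes was asked with an interaction of clone and condition. Of the 10 genes 0 were called in edgeR (Benjamini-Hochberg adjusted p from 0.261 to 0.945), against 3.16% of all genes. The smallest unadjusted p was that of Ddit3, the 1 gene under 0.05, whose log2 fold change was higher in clone 8 than in clone 4 by 1.34 ± 0.50 (SE, log2; unadjusted p = 0.0259, edgeR). With the offset for transcript length this difference was 0.28 ± 0.46 (SE, log2; unadjusted p = 0.559, edgeR). Clone 8 has vehicle clone8_1 as its only vehicle library, so a difference between clones and a property of that library cannot be told apart.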

How the data were processed

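RNA-seq was read from 7 libraries, each made from 2 ng of RNA with a low-input amplification kit, per the labels' protocols. The authors deposited whole-number counts for each Ensembl gene, not normalised. The submitters' processing notes name bcl2fastq 2.19.1, STAR 2.5.3a and mm10. The counting program, annotation and strand setting are not given in the sources used here. Without molecular identifiers, amplified reads are not independent molecules.

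Symbols, coordinates and typical transcript lengths (median of the basic transcripts) are from GENCODE M21 (GRCm38), matched by gene ID for 52489 of 52636 genes. Testing used edgeR 4.0.16 under R 4.3.3 (TMM factors, filterByExpr by group, quasi-likelihood test, condition as the only term) and p-values were adjusted over all genes; an adjusted p under 0.05 was called. CPM values use the TMM factors, and log2 CPM a prior count of 2. DESeq2 1.42.0 was an alternative. The code was tested on simulated data with a spread set well below that of these data (biological coefficient of variation 0.456). That check covers the code and does not show what changes this design could detect.

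The genes named are the 10 stress genes and, from each list, up to 3 genes with the smallest p. Mthfd2, Phgdh, Eif2s3x, Eif2s3y and the markers of trophectoderm, epiblast and primitive endoderm that are named were chosen after their values were seen. The 10 genes and the lists were chosen with earlier results of these data known.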

Additional observations from a re-analysis of the deposited data

Results flagged for a closer look

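In the tamoxifen group, Hspa5 was 1155 CPM in clone8_2, far from the other 3 libraries (827 to 872 CPM): the gap to the nearest was 0.861 of the range of the group, above Dixon's 95% critical value for 4 samples. About 1 group in 20 passes this limit by chance, and 10 genes were examined. The vehicle group, with 3 libraries, is too small for this test.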

How the results depend on the processing

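Over 17 alternatives, 0 of 169 estimates for the 10 genes had an adjusted p under 0.05 (0.551 to 1.000), and 3 genes (Atf4, Asns and Ppp1r15a) kept their direction throughout. Estimates for the others changed sign 15 times, and apart from the construction of each alternative the cause was not tested. With 1 library left out, Trib3 ran from -0.20 (without vehicle clone4_1) to 1.24 (without vehicle clone4_2), Ddit3 from -0.13 to 0.54, Ddit4 from -0.50 to 0.40, Chac1 from -1.51 to 3.02, Sesn2 from -0.034 to 0.16, Atf5 from 0.00059 to 0.98, Hspa5 from -0.58 to -0.0049, Asns from 0.25 to 0.94, Atf4 from -0.47 to -0.19 and Ppp1r15a from -0.60 to -0.37. Without vehicle clone4_2, Ddit4 was 0.40 and Chac1 3.02, and 4 genes had an unadjusted p under 0.05 (Atf5, Trib3 and Chac1 higher, Ppp1r15a lower). Without vehicle clone8_1, Ddit3 was -0.13 and Trib3 -0.073. Without tamoxifen clone4_1, Sesn2 was -0.034, and without tamoxifen clone4_2, Trib3 was -0.15. With both libraries numbered clone8_1 left out, Atf5 was -0.086, Ddit3 -0.17, Trib3 -0.073 and Hspa5 0.051. With clone 4 alone Ddit3 was -0.12, and with an offset for transcript length -0.029. Chac1 was 0.36 with clone as a term and 0.62 with the replicate block, which called 0 genes and changed no call. The labels do not say that equal numbers mark shared material. Deviations of same-numbered libraries correlated at -0.068 to 0.021, and none of the libraries with a same-numbered partner correlated best with that partner. Such correlations over all genes cannot show whether same-numbered libraries shared material, so this is not known. Chac1 has no value when at least 10 counts are required in every library. DESeq2 called 4 of all genes and leaving out both clone8_1 libraries 2, where edgeR called 0. A difference between clones in the response was called in 514 genes, in 1016 by DESeq2, in 991 without a filter and in 112 with the length offset, and in 52 to 695 with 1 library left out; without vehicle clone8_1 it could not be fitted. List medians without each library in turn were added after the data were seen. The median of the other ATF4 targets was 0.13, 1.74 without vehicle clone4_2 and -0.14 without vehicle clone8_1. The medians of the p53 targets (-0.097 without vehicle clone8_1 to 0.19 without vehicle clone4_1) and of the oxidative stress genes (-0.14 without vehicle clone4_2 to 0.098 without tamoxifen clone4_2) changed sign, that of the heat shock genes ran from -0.22 to -0.098 (without tamoxifen clone4_2 and clone8_1), and that of the immediate early genes from -0.46 (without tamoxifen clone8_2) to -0.21 (without vehicle clone4_2). In every library 9 of the 10 genes had at least 128 counts, and Chac1, with as few as 7, is the gene whose estimates depth limits most.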
